A study of Mus musculus with 6 samples.

Results

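The peroxiredoxin and thioredoxin system was examined in LSK cells (Lineage-/Sca1+/cKit+), the bone marrow fraction that holds HSCs and early progenitors. Its 10 genes, Prdx1 to Prdx6, Txn1, Txn2, Txnrd1 and Txnrd2, were found by the gene name given to each probe in the scanner files. They were represented by 25 of 56605 probes, and 23 of these 25 were among the 32075 probes tested. The arrays came from C57BL/6 mice at P6-P8, with 3 control samples (Atg5w/w;VaviCre+) and 3 Atg5f/f;Vav samples (Atg5f/f;VaviCre+). Both groups carry the Vav-iCre transgene, which drives recombination in haematopoietic cells from fetal life onwards, so the groups differ by label in the floxed Atg5 alleles, a gene needed to form autophagosomes. The labels do not say whether a sample is 1 mouse or a pool, and the p-values therefore measure the spread between these samples, which may be technical. In sorted bulk samples, fewer cells of a type and less RNA per cell cannot be told apart.

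Peroxiredoxins are thiol peroxidases that reduce hydrogen peroxide and organic peroxides through a reactive cysteine. The oxidised cysteine of most of them is reduced by a thioredoxin, a small protein with a paired-cysteine active site, and the thioredoxin is in turn reduced by a thioredoxin reductase, a selenoprotein that draws electrons from NADPH. Txn1 and Txnrd1 serve the cytosol and nucleus, whereas Txn2 and Txnrd2 serve mitochondria, and the level of reactive oxygen species is known to bear on how HSCs are maintained.

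The arrays read these genes through 60-base probes, of which 4 are shown because the results on Prdx1, Prdx2, Prdx6 and Txnrd2 rest partly on them. The Prdx1 probe starts at base 423 of its transcript and was placed at chr4:116365578-116366348 of mm9 on the plus strand, a stretch longer than the probe, so its ends lie on different sides of an intron. The Prdx2 probe (base 272, chr8:87494387-87494446, plus strand) and the Txnrd2 probe (base 815, chr16:18456121-18456180, plus strand) each lie in 1 block. The Prdx6 probe (base 682, chr1:163173715-163173774, minus strand) showed the largest change among the probes of the 10 genes. The letters are written 5′ to 3′ as deposited, with no part marked by capitals.
Prdx1 probe: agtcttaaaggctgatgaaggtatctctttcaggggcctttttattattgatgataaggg
Prdx2 probe: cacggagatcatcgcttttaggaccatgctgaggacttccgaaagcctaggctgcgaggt
Prdx6 probe: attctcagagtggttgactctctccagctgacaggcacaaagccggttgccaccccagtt
Txnrd2 probe: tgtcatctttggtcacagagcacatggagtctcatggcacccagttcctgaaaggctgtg

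Promoters were searched for the core of the antioxidant response element, TGACNNNGC on either strand, which is known as the element bound by Nrf2 with small Maf proteins. RefSeq promoter windows on GRCm38.p6, from 250 bases before to 50 after the start, were matched for 9 of the 10 genes. The core was in windows of 2 genes, Prdx1 (133 bases before the start) and Txnrd1 (92 bases before the start, in 1 of its windows), and it was in 14.0% of 27025 genes with a window. The E-box CACGTG was in the window of Prdx4, 52 bases before the start, and in 8.09% of all genes. Srxn1, which repairs overoxidised peroxiredoxins and is described further on, held the core just after its start. The stretches of these 3 genes around the core are given on the gene's strand, at chr4:116685430-116685510 (Prdx1), chr10:82859078-82859158 (Txnrd1) and chr2:152105542-152105570 (Srxn1), all on the plus strand, with the match to the core in capitals. A match describes letters and not binding.
Prdx1 promoter stretch: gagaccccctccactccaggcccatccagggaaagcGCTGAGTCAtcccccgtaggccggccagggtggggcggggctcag
Txnrd1 promoter stretch: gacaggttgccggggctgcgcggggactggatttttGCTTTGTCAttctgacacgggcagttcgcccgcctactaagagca
Srxn1 promoter stretch: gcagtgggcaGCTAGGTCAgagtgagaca

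All values are log2 signal, which is the log2 of a spot's intensity minus the 75th percentile of that array, and a difference is the log2 fold change of Atg5f/f;Vav over control. All 6 arrays lay on 1 slide scanned once. Controls filled row 1 of that slide and the arrays labelled Atg5f/f;Vav row 2, and the effect of the row and that of genotype cannot be told apart. The share of spots well above background was 59.4% to 59.9% in the controls and lower on the arrays labelled Atg5f/f;Vav, at 53.6% to 56.7%, with the lowest on replicate 3. Its part in the results was not tested, and the number of arrays limits the precision. The 1 probe for Atg5 starts at base 2251 of the transcript (chr10:44083997-44084056 of mm9, plus strand). It read 0.93 to 1.10 in the controls and 1.46 to 1.74 on the arrays labelled Atg5f/f;Vav (difference 0.54, standard error 0.12), without overlap. Whether this probe lies in the deleted stretch was not determined, so it does not check the labels, and each direction below rests on them.

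The 10 genes were higher in the arrays labelled Atg5f/f;Vav, with a median difference of 0.56 and a range of 0.24 to 0.91. By limma with Benjamini-Hochberg adjustment over all probes, 7 of the 10 passed an adjusted p of 0.05, all higher, when each gene was represented by its probe with the highest mean signal. Among all 20778 genes, 34.1% passed, 18.7% as higher and 15.3% as lower, with a median difference of −0.03. The groups did not overlap for any of the 10 genes, as was true in the same direction of 29.6% of all genes and in either direction of 55.9%. By a 2-sided exact permutation test each gene had p = 0.1, the smallest that 3 against 3 arrays allow. Genes whose mean signal lay in the same range as the 10 genes, 2.31 to 5.58, numbered 3675, and 42.0% of these passed as higher, 60.6% did not overlap in that direction and their median difference was 0.29. None of the 7 passed in limma without control replicate 1 or without control replicate 2, where the smallest adjusted p was 0.0695 and 0.0722. In each case 7 of the 10 genes had an unadjusted limma p under 0.05, beside 11617 and 11455 of all 32075 probes. Leaving out any other array left 6 to 8 of the 10 past the threshold.

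**Figure D1:**
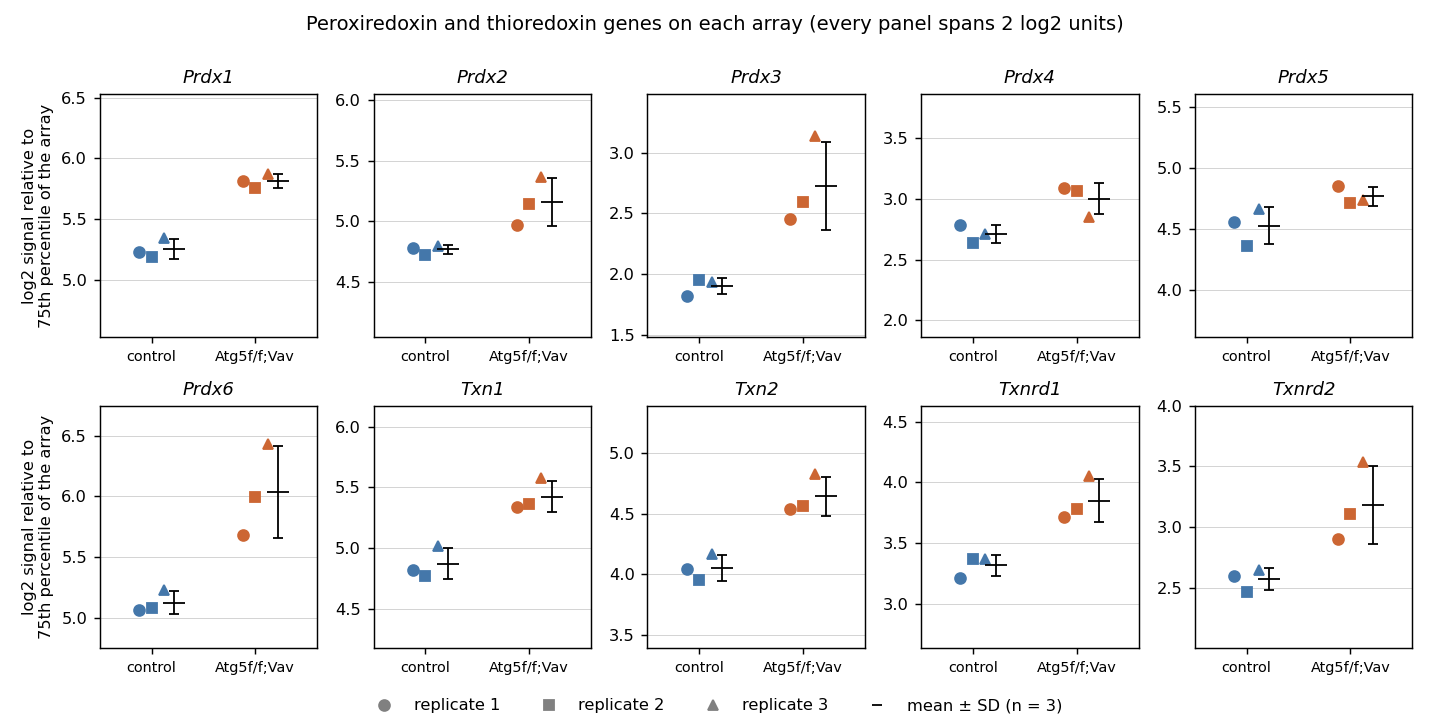
Log2 signal relative to the 75th percentile of the array (vertical axis, every panel spanning 2 log2 units) for the probe that represents each of the 10 genes, on 3 control arrays (blue) and 3 arrays labelled Atg5f/f;Vav (orange), with marker shapes for the replicate number and black bars for the mean ± SD. In every panel the orange points lie above the blue ones, with the widest gaps for Prdx6 and Prdx3 and the narrowest for Prdx5.

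Prdx1, a cytosolic 2-Cys peroxiredoxin, rose 1.47-fold. On its representing probe (base 840, chr4:116372029-116372088 of mm9, plus strand) the log2 signal was 5.23, 5.19 and 5.34 in the controls and 5.81, 5.75 and 5.87 on the arrays labelled Atg5f/f;Vav. Each group was tight and the groups stood apart, with a difference of 0.56 (standard error 0.10, adjusted p = 0.0167, limma). Leaving out control replicate 1 gave an adjusted p of 0.0695 and leaving out control replicate 2 one of 0.0722. The probe shown above that crosses an intron gave 0.68 (adjusted p = 0.0161), and a probe at base 10, also split over 1806 genomic bases, gave 0.64 (adjusted p = 0.0165).

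A further Prdx1 probe did not follow these. It belongs to another transcript record (base 93, chr4:116358559-116358618, plus strand) and lies inside the genomic stretch that the base 10 probe skips. Its log2 signal was −2.98, −2.74 and −2.90 in the controls and −3.50, −3.15 and −3.20 on the others, so the groups did not overlap in the opposite direction. The difference of −0.41 had an adjusted p of 0.0552 in limma.

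Prdx2, the cytosolic 2-Cys peroxiredoxin that is also abundant in red blood cells, split between its probes. Its representing probe (base 882, chr8:87498153-87498212, plus strand) read 4.78, 4.73 and 4.80 on the control arrays. The other arrays read 4.97, 5.15 and 5.37, highest on Atg5f/f;Vav replicate 3 and without overlap with the controls. The difference was 0.39 (standard error 0.13, adjusted p = 0.0549) and did not pass, whereas without Atg5f/f;Vav replicate 1 it was 0.49 (adjusted p = 0.0358). The probe at base 272, whose letters are given above, rose by 0.50 (adjusted p = 0.0262). A probe at base 203 of another record, on the minus strand, was not well above background on any array.

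Prdx3, the mitochondrial 2-Cys peroxiredoxin that is reduced by Txn2, rose 1.77-fold on its single probe (base 1206, chr19:60940148-60940207, minus strand). Its values were 1.82, 1.95 and 1.93 in the controls and 2.45, 2.59 and 3.14 on the arrays labelled Atg5f/f;Vav. The control arrays were close together and Atg5f/f;Vav replicate 3 was the highest of the other group. The difference was 0.83 (standard error 0.19, adjusted p = 0.0211, limma), above that of 94.7% of all genes. It was 0.62 (adjusted p = 0.0164) without Atg5f/f;Vav replicate 3, while the adjusted p was 0.0778 without control replicate 1 and 0.0772 without control replicate 2.

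Prdx4, which works in the endoplasmic reticulum during oxidative protein folding, did not pass. The log2 signal of its representing probe (base 604, chrX:151764882-151764941, minus strand) was 2.78, 2.63 and 2.71 on the control arrays against 3.09, 3.06 and 2.85 on the others. The difference was 0.29 (standard error 0.12, adjusted p = 0.0889), and Atg5f/f;Vav replicate 3 was the lowest of its group. Without that replicate the difference was 0.37 (adjusted p = 0.0455). A probe for another transcript record overlapped between groups (difference −0.39, adjusted p = 0.221), and with the mean of both probes the difference was −0.05.

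Prdx5, the atypical 2-Cys member found in mitochondria, peroxisomes and cytosol, had the smallest difference. On the representing probe (base 1201, chr19:6981197-6981256, minus strand) the control arrays read 4.55, 4.36 and 4.67 and the others 4.85, 4.71 and 4.74. The nearest values of the groups were almost level, and the difference of 0.24 (standard error 0.12) had an adjusted p of 0.158. The probe at base 566 overlapped between groups (difference 0.19, adjusted p = 0.258).

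Prdx6, the 1-Cys member, which uses glutathione in place of thioredoxin and also has phospholipase activity, had the largest difference of the 10. Its representing probe (base 1534, chr1:163171138-163171197, minus strand) read 5.06, 5.08 and 5.23 on the control arrays. On the arrays labelled Atg5f/f;Vav it read 5.68, 6.00 and 6.43, with the highest value again on replicate 3. The rise was 1.88-fold (difference 0.91, standard error 0.20, adjusted p = 0.0190, limma), above that of 96.1% of all genes, and it was 0.71 (adjusted p = 0.0187) without Atg5f/f;Vav replicate 3. The adjusted p was 0.0720 without control replicate 1 and 0.0767 without control replicate 2. On the probe shown above the difference was larger, at 1.28 (standard error 0.23, adjusted p = 0.0160), from 2.57 to 2.75 in the controls and from 3.55 to 4.45 on the others. The accessions listed for that probe include Prdx6b, a closely related sequence whose own probe was not well above background on any array.

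Both thioredoxins rose. Txn1, the cytosolic form, read 4.82, 4.77 and 5.01 in the controls and 5.34, 5.36 and 5.57 on the arrays labelled Atg5f/f;Vav (base 559, chr4:57956677-57956736, minus strand). The groups were separate by more than the range of either, and the rise was 1.47-fold (standard error of the log2 difference 0.12, adjusted p = 0.0205). Txn2, the mitochondrial form, read 4.05, 3.95 and 4.16 against 4.54, 4.56 and 4.83 on its representing probe (base 1222, chr15:77745481-77745540, minus strand). Its rise was 1.51-fold (difference 0.59, standard error 0.13, adjusted p = 0.0192). Probes of Txn2 at base 1031 and, on another record, base 391 rose by 0.73 (adjusted p = 0.0178) and 0.64 (adjusted p = 0.0495), and a probe at base 1708 of a further record was not well above background on any array. For Txn1 the adjusted p in limma was 0.0819 once control replicate 1 was left out and 0.0827 once control replicate 2 was, and for Txn2 it was 0.0746 and 0.0792.

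Both thioredoxin reductases rose as well. The cytosolic Txnrd1 read 3.22, 3.37 and 3.37 in the controls and 3.71, 3.78 and 4.05 on the others (base 3394, chr10:82360230-82360289, plus strand). That is a 1.44-fold rise without overlap (difference 0.53, standard error 0.13, adjusted p = 0.0244), whereas its probe at base 552 overlapped between groups (difference 0.35, adjusted p = 0.148). The mitochondrial Txnrd2 read 2.60, 2.47 and 2.65 against 2.90, 3.11 and 3.53 (base 1844, chr16:18479106-18479165, plus strand). Its rise was 1.53-fold (difference 0.61, standard error 0.18, adjusted p = 0.0373), again highest on Atg5f/f;Vav replicate 3, without which the difference was 0.43 (adjusted p = 0.0419). The other 3 probes of Txnrd2 passed too, with differences of 0.60 (base 404), 0.74 (base 815, shown above) and 0.69 (base 1180, well above background on only 1 of 3 control arrays). The call on the representing probe of Txnrd2 was lost without control replicate 1, 2 or 3 or Atg5f/f;Vav replicate 2 (adjusted p = 0.103, 0.123, 0.0695 and 0.0684), and that of Txnrd1 without control replicate 1 or 2 (adjusted p = 0.0957 and 0.0811).

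**Figure D2:**
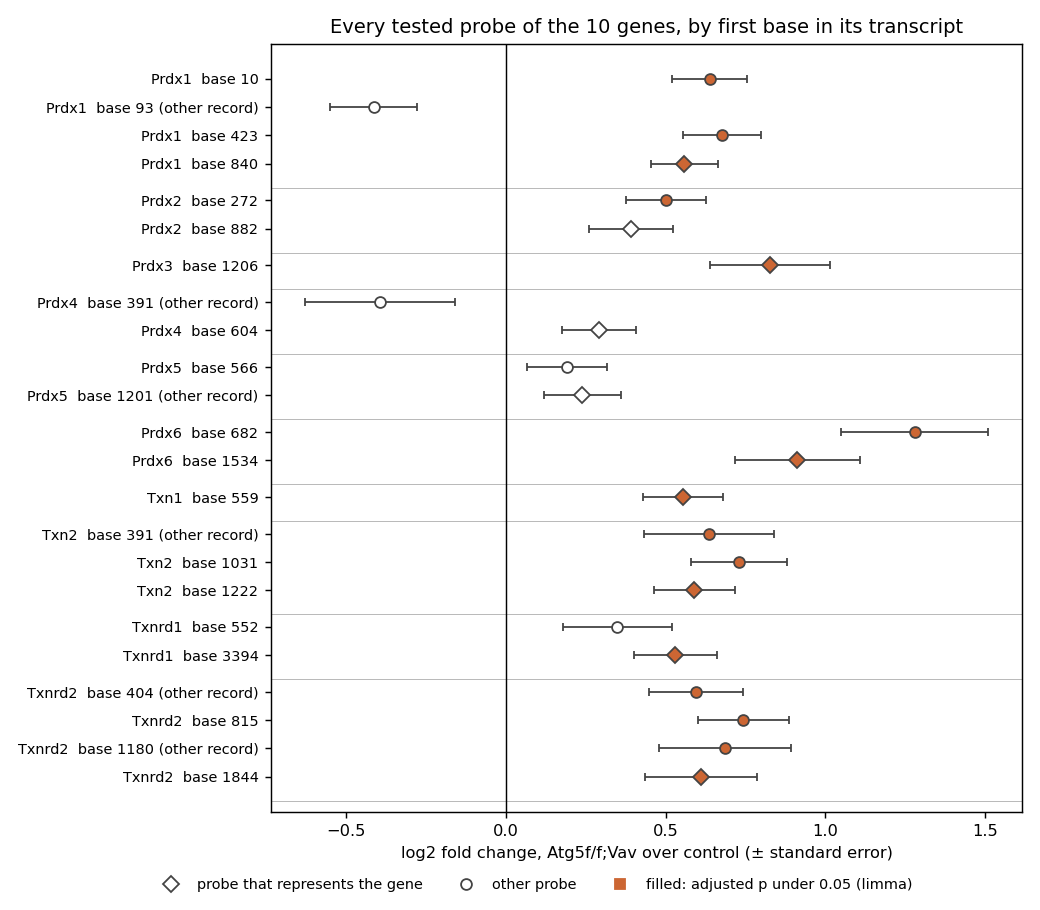
Log2 fold change of Atg5f/f;Vav over control (horizontal axis, bars for the standard error) for the 23 tested probes of the 10 genes, listed by gene and first base in the transcript, where "other record" marks a transcript record that is not a curated RefSeq one. Diamonds stand for representing probes and filled symbols for an adjusted p under 0.05, and 21 probes lie right of 0 while the 2 left of 0 belong to other records of Prdx1 and Prdx4.

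Over single probes, 16 of the 23 passed as higher and 0 as lower, where 34.4% of all probes passed, 17.3% as higher and 17.1% as lower. The groups did not overlap for 19 probes in the direction of Atg5f/f;Vav and for 1 in the other, and they overlapped for 3. The share of all probes without overlap was not computed. Counted by gene, 29.6% of all genes did not overlap as higher and 55.9% in either direction. Among genes in the signal range of the peroxiredoxin and thioredoxin system, 60.6% did not overlap as higher. Probes of 1 gene share their RNA and are not independent.

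The question of whether mitochondrial forms responded differently from their cytosolic counterparts was put to 3 pairs, by taking the difference of the log2 signals on each array. Txn2 minus Txn1 changed by 0.04 between groups (exact permutation test, 2-sided, p = 0.3). Txnrd2 minus Txnrd1 changed by 0.08 (exact p = 0.5). For Prdx3 minus Prdx1 the change was 0.27 (exact p = 0.2), from −3.41, −3.24 and −3.41 on the control arrays to −3.36, −3.16 and −2.73 on the others, and it was 0.09 without Atg5f/f;Vav replicate 3. After adjustment over the 3 pairs the exact p was 0.45, 0.5 and 0.45, and since 3 against 3 arrays cannot go below 0.1, these tests do not settle whether the forms differed.

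The rise of the 10 genes depended on how arrays were scaled to each other. With quantile normalisation, 1 of the 10 passed, Prdx3 (difference 0.62, adjusted p = 0.0368, limma). The median difference of the 10 genes was then 0.22, while that of the genes in the same range of signal was 0.0021, of which 17.8% passed as higher, and 13.9% of all genes did. Prdx6 had a difference of 0.55 (adjusted p = 0.0533) on this scale, Prdx2 one of 0.02, and Prdx5 changed sign to −0.12 (adjusted p = 0.435). With the 75th percentile taken over the probes detected on every array, 6 of the 10 passed. On this scale 13.2% of all genes passed as higher, and 31.5% of the genes in the signal range of the 10. The median difference was 0.40 for the 10 genes and 0.14 for the genes in their range. That scaling moved the median over all probes from −0.06 to −0.22 and turned the split of called probes from 5540 higher and 5483 lower to 3892 higher and 8741 lower.

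**Figure D3:**
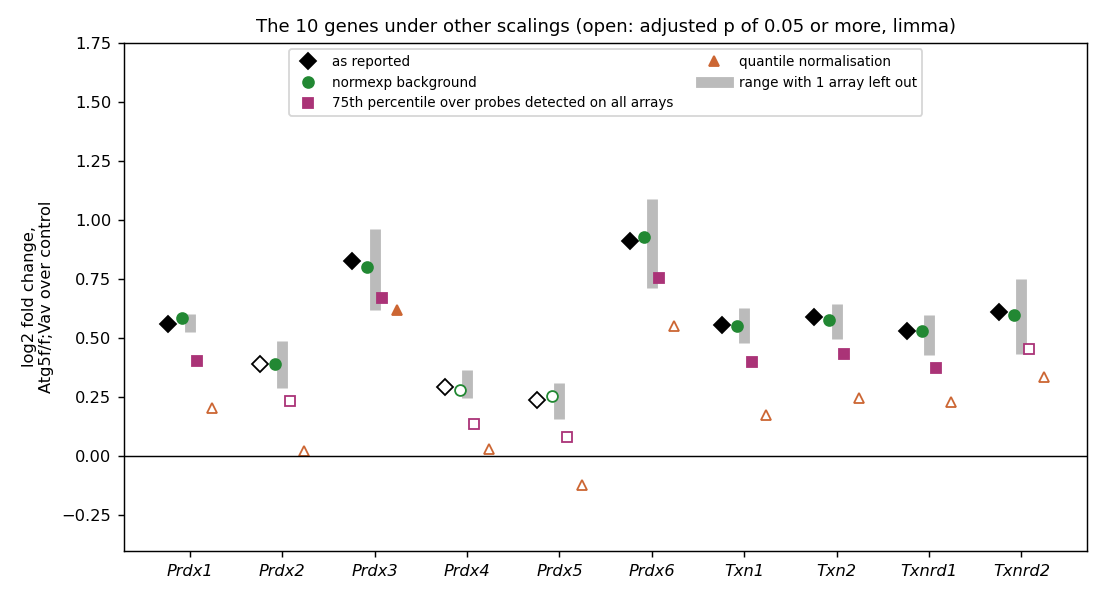
Log2 fold change of Atg5f/f;Vav over control (vertical axis) for each of the 10 genes as reported (diamonds), with normexp background correction (circles), with the 75th percentile over the probes detected everywhere (squares) and with quantile normalisation (triangles), filled where the adjusted p was under 0.05. Grey bars span the values with 1 array left out, and the triangles lie lowest for every gene, with Prdx3 the only filled triangle and Prdx5 the only one under 0.

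Markers of other blood cells differed between the groups beside these genes. The counts of markers are to be read against all genes, of which 18.7% passed as higher and 15.3% as lower. Of 10 erythroid markers, 4 passed as higher (the transcription factors Gata1 and Klf1, the erythropoietin receptor Epor and Rhag) and 4 as lower (Hba-a1, Hbb-b1, Alas2 and Slc4a1). Ermap did not pass on its representing probe (−0.11, adjusted p = 0.685, limma), while its other probe passed as higher, at 2.85 (adjusted p = 0.0188). Gata1 read 0.38 to 0.95 in the controls and 2.90, 3.73 and 4.56 on the arrays labelled Atg5f/f;Vav, so it was highest on replicate 3, as were 8 of the 10 genes, with Prdx4 and Prdx5 as the exceptions. The summed erythroid signal was 7.81 to 8.99 in the controls and 6.34 to 6.97 on the others. Sums here are the log2 of added linear signals, so the brightest markers weigh most. Hba-a1 alone read 7.72 to 8.90 against 6.00 to 6.42. Of 9 neutrophil markers 2 passed as higher (Mpo and Prtn3) and 6 as lower (S100a8, S100a9, Ngp, Camp, Ltf and Mmp8). Their summed signal was 7.45 to 8.11 against 7.76 to 8.08, in which Mpo alone read 5.95 to 7.19 against 7.43 to 7.66. Of 5 stromal markers tested 3 passed as lower (Col1a1, Col1a2 and Sparc). The summed stromal signal was 1.76 on control replicate 1, 4.65 or more on the other 2 control arrays and 1.20 to 1.58 on the arrays labelled Atg5f/f;Vav. The LSK markers were well above background on all arrays. By representing probe, 1 of 8 passed as higher (Ly6a, which encodes Sca1) and 1 as lower (Meis1). Kit and Flt3 were lower without overlap but did not pass, at −0.38 (adjusted p = 0.0563, limma) and −0.87 (adjusted p = 0.0676). Kit probes on another transcript record passed as lower, at −0.62 (adjusted p = 0.0231) and −0.67 (adjusted p = 0.0207). A Flt3 probe on another record passed too, at −0.85 (adjusted p = 0.0138). Of the 8, Ly6a and Gata2 had a positive difference, and that of Gata2 did not pass (0.26, adjusted p = 0.103). The summed megakaryocyte signal was 2.92 to 3.18 in the controls against 2.68 to 2.76 on the others, without overlap, with 1 of 6 markers passing as higher (Itga2b) and 3 as lower (Gp9, Vwf and Ppbp, the last not well above background on any array labelled Atg5f/f;Vav). Among mast cell and eosinophil markers the sum was 2.46 to 3.46 against 2.65 to 3.35, and 1 of 6 passed, Gzmb. It was not well above background in the controls and at least 31.7-fold higher on the others. Gzmb entered the test through the arrays labelled Atg5f/f;Vav alone, so its call is not used as evidence. B cell markers summed to 3.20 to 3.62 against 3.42 to 4.16, with 1 of 7 passing as higher (Cd79a, well above background on 1 of the 3 control arrays). Macrophage markers summed to 0.73 to 0.88 against 0.59 to 0.79, with 1 of 4 tested passing as lower (Vcam1) and C1qa, C1qc and Mrc1 not tested for low signal. For T and NK cells the sum was 0.04 to 0.52 against −0.21 to 0.37, with 0 of 3 tested passing in limma, 1 at an unadjusted p under 0.05 (Klrb1c, lower), and Cd3g, Cd8a and Ncr1 not tested. The representing probes of Col1a1, Ppbp and Klrb1c were not well above background on any array labelled Atg5f/f;Vav. They entered the test through the controls alone, so these results are not read as falls. Across probes, Atg5f/f;Vav replicate 3 correlated with the control arrays at r = 0.952 to 0.962 and the other 2 arrays of its group at r = 0.975 to 0.985. The part of these markers in the rise of the 10 genes was not tested.

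The partners that repair peroxiredoxins or restrain thioredoxin moved in different directions. Srxn1, the sulfiredoxin that restores overoxidised 2-Cys peroxiredoxins, read 0.16, 0.18 and 0.06 in the controls and 0.74, 1.44 and 2.31 on the arrays labelled Atg5f/f;Vav. It rose by 1.36 (standard error 0.36, adjusted p = 0.0298, limma), with wide spread in the second group and its highest value on replicate 3. Txnip, which binds and inhibits thioredoxin, fell from 5.21, 5.18 and 5.38 to 4.81, 4.82 and 4.52 (difference −0.54, standard error 0.13, adjusted p = 0.0241). Sesn1 and Sesn3, sestrins known as stress-induced regulators of mTOR signalling, fell as well, with differences of −0.81 (adjusted p = 0.0319) and −0.90 (adjusted p = 0.0266), both lowest on Atg5f/f;Vav replicate 3. Sesn2 differed by −0.22 (adjusted p = 0.159). In all, 1 of these 5 genes passed as higher and 3 as lower, with a median of −0.54. Of all genes, 18.7% passed as higher and 15.3% as lower. The same directions held with quantile normalisation, where Srxn1 was at 1.29 and Txnip at −0.90. These 4 calls were lost without control replicate 1, 2 or 3, with adjusted p from 0.0606 to 0.104, and those of Srxn1, Sesn1 and Sesn3 also without Atg5f/f;Vav replicate 2 (0.0605, 0.0536 and 0.0559). With the replicate number as a block, Txnip had an adjusted p of 0.0533.

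Of 9 proteins served or held by thioredoxin, 4 passed as higher (44.4%) and 1 as lower, with a median of −0.05, beside 18.7% of all genes passing as higher and 42.0% of those in the signal range of the 10 genes. Of all genes, 78.3% had a mean signal under that range. Several genes of this list and of the lists below were dimmer than it too, so its share is not a matched background for them. Rrm1 and Rrm2, the subunits of ribonucleotide reductase that make deoxynucleotides in dividing cells, rose by 0.84 (standard error 0.14, adjusted p = 0.0154) and 0.78 (standard error 0.17, adjusted p = 0.0203). Rrm2 read 3.12, 2.93 and 3.31 against 3.72, 3.78 and 4.22, without overlap. Rrm2b, the p53-induced subunit, differed by −0.36 (adjusted p = 0.0857). Among methionine sulfoxide reductases, which repair oxidised methionine, Msrb1 rose by 0.42 (adjusted p = 0.0380) and Msrb3 fell by 1.49 (adjusted p = 0.0163). Msrb2 and Msra differed by −0.45 (adjusted p = 0.103) and −0.05 (adjusted p = 0.853). Of the kinases that reduced thioredoxin is known to restrain, Map3k6 rose by 0.92 (adjusted p = 0.0256) and Map3k5 differed by −0.05 (adjusted p = 0.813). All 5 calls were lost without control replicate 1 or 2, with adjusted p from 0.0664 to 0.131, and that of Msrb1 also without any array labelled Atg5f/f;Vav (0.0610 to 0.0860). With quantile normalisation Msrb1 differed by 0.15 (adjusted p = 0.261).

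Of 22 relatives that share the thioredoxin fold, 21 were tested and 9 passed as higher (42.9%) and 0 as lower, with a median of 0.34. Beside these stand 18.7% of all genes passing as higher and, in the signal range of the 10 genes, 42.0% with a median difference of 0.29. P4hb, a protein disulfide isomerase of the endoplasmic reticulum, rose by 0.77 (adjusted p = 0.0186). Txnl1, a thioredoxin-like protein of the cytosol, rose by 0.73 (adjusted p = 0.0192), and Nxn, nucleoredoxin, by 0.60 (adjusted p = 0.0167). With quantile normalisation 3 of the 21 passed as higher (14.3%), beside 13.9% of all genes, and their median was 0.13.

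Genes that make selenoproteins, among which are the thioredoxin reductases, showed 3 of 9 passing as higher (33.3%) and 0 as lower. Their median was 0.29, beside 18.7% of all genes passing as higher. In the signal range of the 10 genes the median was 0.29 and 42.0% passed as higher. Several of the 9, Scly and Eefsec among them, were dimmer than that range, so it is not matched to this list. Scly, selenocysteine lyase, read 1.31, 1.12 and 1.33 in the controls and 1.92, 2.29 and 2.90 on the others and rose by 1.12 (standard error 0.24, adjusted p = 0.0193). Sephs2, which makes selenophosphate, rose by 0.72 (adjusted p = 0.0200), and Eefsec, the elongation factor for selenocysteine, by 0.44 (adjusted p = 0.0310). With quantile normalisation Scly alone passed, at 0.94 (adjusted p = 0.0303), or 11.1% of the list beside 13.9% of all genes, and the median was 0.04.

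Of 8 genes that supply NADPH or its precursor outside the pentose phosphate pathway, 7 were tested, with a median of 0.21. Of these, 2 passed as higher (28.6%), beside 18.7% of all genes. Among genes in the signal range of the peroxiredoxin and thioredoxin system, 42.0% passed as higher. Several of the 7, Me2 among them, were dimmer than that range, so it is not matched to this list. Me2, a mitochondrial malic enzyme, rose by 0.65 (adjusted p = 0.0171) and Nadk, the cytosolic NAD kinase, by 0.57 (adjusted p = 0.0254). Me3, another mitochondrial malic enzyme, named here after its values were seen, was dim, with −4.39, −4.19 and −4.47 in the controls against −5.32, −4.76 and −5.40. It was not well above background on any array of the second group and entered the test through the controls alone, so its call is not read as a fall. With quantile normalisation Me2 passed at 0.61 (adjusted p = 0.0238), Nadk was at 0.29 (adjusted p = 0.0812) and the median was −0.02.

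The calls named in these 3 lists, P4hb, Txnl1, Nxn, Scly, Sephs2, Eefsec, Me2 and Nadk, were lost without control replicate 1 or 2, with adjusted p from 0.0691 to 0.112. The call of Eefsec was also lost without control replicate 3 or Atg5f/f;Vav replicate 2 (adjusted p = 0.0644 and 0.0584).

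**Figure D4:**
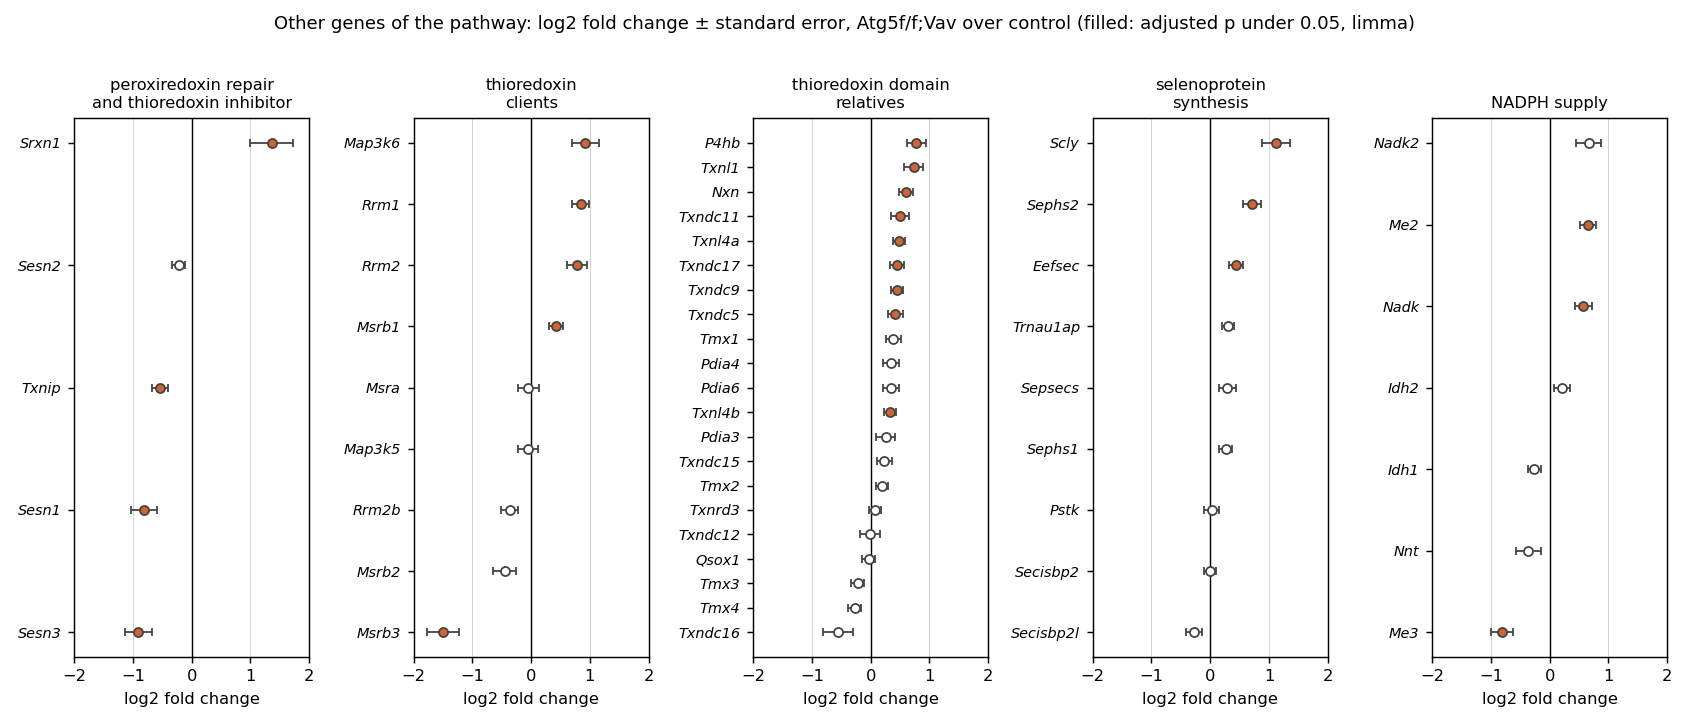
Log2 fold change of Atg5f/f;Vav over control (horizontal axes, bars for the standard error) for the 51 other pathway genes tested, in 5 panels by role, with filled points for an adjusted p under 0.05. Srxn1 stands alone on the right of the first panel with Txnip, Sesn1 and Sesn3 filled on the left, and no filled point lies left of 0 among the thioredoxin domain relatives or the selenoprotein synthesis genes.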

How the data were processed

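Total RNA of sorted LSK cells was labelled with Cy3 and hybridised to 1-colour Agilent arrays. The authors deposited scanner files of spot intensity, background-subtracted and detrended within each array by Agilent Feature Extraction 12.0.3.1, together with normalised signal values, equal to the intensity over 1 constant per array close to the 75th percentile of all its spots. From the intensities, log2 values minus each array's 75th percentile over 59305 non-control spots were computed, dropping spots flagged as outliers (64 to 81 on an array) and averaging spots of a probe. A probe was tested if well above background on 3 or more arrays (limma 3.58.1 in R 4.3.3, 2-sided, Benjamini-Hochberg, threshold 0.05), and the steps were tested on simulated data. The members and lists were chosen with earlier results of these data known. Named genes are the 10 members, the repair and client lists, and of each other list at most 3 genes each way with the largest called change and signal above background on all arrays. Probe positions are those of the files (mm9), and exons and UTRs were not assigned. Alternatives were normexp (offset 50), quantile normalisation, another 75th percentile, the deposited values, other filters, flagged spots kept, a trend with intensity in eBayes, the replicate block, the methods' t-test, the mean of a gene's probes and each array left out.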

Additional observations from a re-analysis of the deposited data

How the results depend on the processing

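Of the 10 genes, 6 to 8 passed under normexp, the deposited values, flagged spots kept, a filter on all arrays, an intensity trend, the other 75th percentile and the mean of a gene's probes. Of all genes, 20.9% passed as higher under normexp, 20.2% with the deposited values and 13.2% with the other 75th percentile. Quantile normalisation gave 1 of the 10 genes and 13 of the other pathway genes, against 24 as reported, and the cause was not tested. Without a filter on dim probes, where more probes enter the adjustment, the counts were 4538 probes, 2 of the 10 genes (Prdx1 and Prdx6) and 6 pathway genes. The methods' t-test with Benjamini-Hochberg adjustment gave 0 probes, 0 of the 10 genes and 0 pathway genes, and unadjusted it gave 13541, 9 and 33. With 1 array left out the counts ranged from 251 to 10304 probes (251 without control replicate 2 and 331 without control replicate 1), from 0 to 8 of the 10 genes and from 0 to 23 pathway genes. Without Atg5f/f;Vav replicate 2 it was 15 for the pathway genes. The labels do not say whether replicate numbers pair the arrays. Deviations of same-numbered arrays correlated at −0.07, 0.19 and 0.11 and those of differently numbered ones at −0.30 to 0.13, which does not settle it with 3 arrays a group. The replicate block gave 10172 probes, 7 of the 10 genes and 23 pathway genes, against 11023, 7 and 24 without it. Signs turned for Prdx5 with quantile normalisation (−0.12), for Prdx4 with the mean of its probes (−0.050) and for Map3k5 with quantile normalisation (0.042). With 1 array left out, Map3k5 ranged from −0.20 to 0.063 and Msra from −0.20 to 0.11. The differences between counterparts kept their sign in each alternative run for them. A slide block could not be fitted with 1 slide. Low signal limits Me3, 1 Txnrd2 probe and, among the markers, Gzmb, Col1a1, Ppbp, Klrb1c and Cd79a.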
